A study of Mus musculus with 6 samples.

Results

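DEAD and DEAH box RNA helicases are enzymes of the Ddx and Dhx gene families that use ATP to remodel RNA duplexes and RNA-protein complexes. They act in RNA processing from transcription to decay: DEAH box enzymes of the spliceosome drive its rearrangements, other members fold pre-ribosomal RNA in the nucleolus, and others release messenger RNA at the nuclear pore, start its translation or repress it. In macrophages several of them also sense or handle foreign RNA. The family was taken as the rows whose symbol starts with Ddx or Dhx and a number. The interferon-induced sensors Ddx58, Ddx60 and Dhx58 were set aside, of which only Ddx60 and Dhx58 had a row under these symbols. This gave 50 of the 22063 rows of the gene table, 35 of them Ddx and 15 Dhx.

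The comparison was between 3 samples of CAR-Trem2-Ms and 3 of CAR-Ms, mouse macrophages made to carry a chimeric antigen receptor by lentivirus, from a study of scar treatment. All were grown for 7 days in DMEM with M-CSF, a macrophage growth factor, at 20 ng/mL, and have the tissue label skin. CAR-Trem2-Ms have the genotype TERM2+, as the label spells it, VD3 at 1 µM over 24 h as induction, and a flow cytometry sort. CAR-Ms have the genotype WT and the lentivirus. The protocol text common to every sample mentions VD3, so the labels do not settle whether CAR-Ms received it, and Trem2 status, sorting and possibly VD3 cannot be told apart. Neither the promoter that drives the receptor nor separate cultures or animals for the replicates are given, so a p-value here reflects sample-to-sample spread, possibly of a technical kind.

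The libraries had total counts, in units of 1e6, of 12.56, 9.8 and 12.22 in CAR-Trem2-Ms and 14.2, 15.91 and 14.54 in CAR-Ms. Genes of the mitochondrial genome took 13.5 ± 0.24% of the counts in CAR-Trem2-Ms and 4.65 ± 0.05% in CAR-Ms (SD, n = 3 each). Trem2 itself averaged 191.2 ± 7.56 CPM in CAR-Trem2-Ms and 76.6 ± 2.32 CPM in CAR-Ms, where CPM are counts per 1e6 scaled by TMM, a method that assumes most genes keep their level. All 7 macrophage markers were detected and summed to 3920 to 3950 CPM in CAR-Trem2-Ms and 3450 to 3480 CPM in CAR-Ms, with 5 markers higher and 2 lower. Against the skin label, 3 of 4 keratinocyte markers had no read and the list summed to 0 CPM in CAR-Trem2-Ms and at most 0.0603 CPM in CAR-Ms. Neutrophil markers summed to 2.56 to 5.95 CPM against 18.4 to 34.7 CPM in CAR-Ms, and B cell markers to 2.76 to 4.04 CPM against 8.93 to 13.9 CPM in CAR-Ms. T cell markers summed to 3.76 to 8.71 CPM in CAR-Trem2-Ms against 0.742 to 1.27 CPM in CAR-Ms. Endothelial and erythroid markers summed to at most 2.66 CPM in CAR-Trem2-Ms and 13.6 CPM in CAR-Ms, and fibroblast markers to 2.66 to 3.76 CPM against 1.71 to 2.76 CPM in CAR-Ms. The part of these in the helicase differences was not tested.

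The helicases as a family took a smaller share of the transcriptome of CAR-Trem2-Ms. Their reads made up 0.582, 0.579 and 0.58% of all counts in CAR-Trem2-Ms, against 0.795, 0.798 and 0.801% in CAR-Ms. The same was seen per length: summed over the family, abundance as TPM, which corrects for transcript length, came to 2129 ± 8.14 in CAR-Trem2-Ms and 3875 ± 47.4 in CAR-Ms (SD, n = 3 each). The replicates lay close together and the groups did not overlap on either measure. The typical gene was also lower on TPM, with a median log2 fold change of -0.63 over all genes and -0.95 over the helicases. With counts scaled by their total, these medians were -0.10 and -0.40. In bulk RNA, fewer cells of a type and less RNA per cell cannot be told apart. Within the family the composition also differed. Ddx5 alone held 22.1, 22.3 and 22.2% of the family's reads in CAR-Trem2-Ms, against 11.5, 11.1 and 11.3% in CAR-Ms.

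The family did not move in one direction, however. Of the 50 genes, 48 had enough reads to be tested, with the germ cell helicases Ddx4 and Ddx25 the exceptions. By edgeR's quasi-likelihood test with Benjamini-Hochberg adjustment over 11402 genes, 26 were lower in CAR-Trem2-Ms, 17 were higher and 5 did not pass an adjusted p of 0.05. Over all genes tested, 40.1% were lower and 40.9% higher, 81.1% in either direction, so a call by itself does not set a helicase apart. A fall of at least 2-fold was called for 8 helicases and a rise of at least 2-fold for 2, against 14.3% and 18.7% of all genes. The median log2 fold change of the tested helicases was -0.28, with quartiles of -0.75 and 0.41. For all genes the median was 0.03, with quartiles of -0.65 and 0.74. The 3 CAR-Trem2-Ms values lay wholly above or below the 3 CAR-Ms values for 43 of the 48 helicases, where 81.8% of all genes did so.

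**Figure D1:**
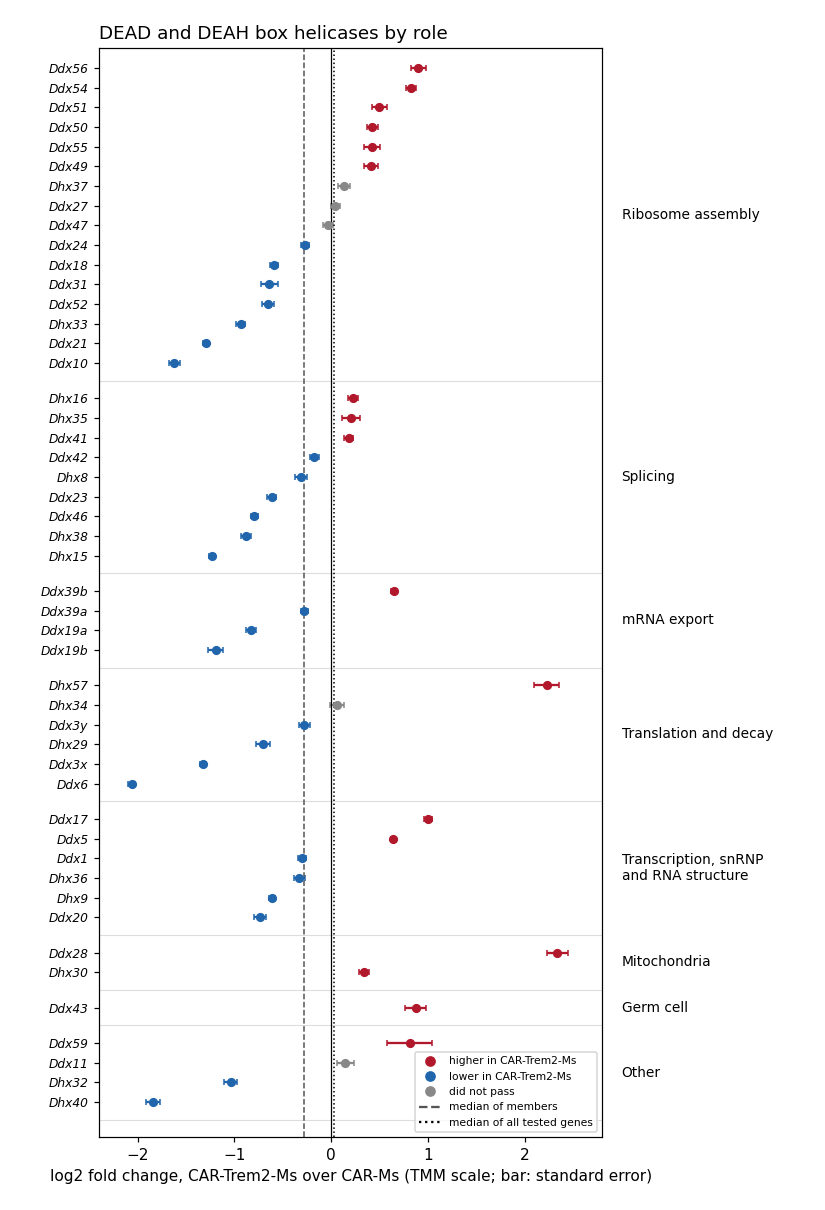
Log2 fold change (CAR-Trem2-Ms over CAR-Ms, TMM scale) of the 48 tested helicases with its standard error, grouped by role and coloured by call, with lines at the medians of the helicases (dashed) and of all genes (dotted). The values run from -2.06 for Ddx6 to 2.34 for Ddx28, and both directions occur in the roles with several members.

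The balance of directions depended on the scale. With upper quartile scaling, which put the median of all genes at 0.26, 22 helicases were higher and 19 lower by the same test. On the deposited TPM, which put the median of all genes at -0.63, 39 helicases were lower and 4 were higher (limma, Benjamini-Hochberg adjusted p under 0.05). Each helicase stood lower on TPM than on the TMM scale, with log2 shifts between -0.93 and -0.25. Of the 17 rises on the TMM scale, 4 were still called higher there, 8 were called lower and 5 did not pass. The rises that held in each of the 8 scalings tried were those of Ddx17, Ddx28, Ddx56 and Dhx57. The falls that held throughout were 19 of 26, which include each fall of at least 2-fold. They are Ddx3x, Ddx6, Ddx10, Ddx18, Ddx19a, Ddx19b, Ddx20, Ddx21, Ddx23, Ddx31, Ddx46, Ddx52, Dhx9, Dhx15, Dhx29, Dhx32, Dhx33, Dhx38 and Dhx40. Other directions given below are those on the TMM scale.

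The helicases listed here under messenger RNA translation and decay held both the largest fall and one of the largest rises. Of 6 tested, 4 fell (Ddx6, Ddx3x, Dhx29 and Ddx3y), Dhx57 rose and Dhx34 did not pass, with a median log2 fold change of -0.49. Ddx6, which represses translation and promotes decapping in processing bodies, showed the largest fall of the family. Its gene lies at chr9:44604892-44640731 on the plus strand (GRCm38). It stood at 120.7, 109.3 and 121.2 CPM in CAR-Trem2-Ms, against 492.6, 486.4 and 491.3 CPM in CAR-Ms. Every CAR-Trem2-Ms value was thus far below every CAR-Ms value. The log2 fold change was -2.06 ± 0.035 (SE), or 4.17-fold lower (edgeR adjusted p = 8.2e-28).

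Ddx3x, the X-linked helicase that helps ribosomes start on messages with structured leaders, had 276.2, 277.6 and 249.3 CPM in CAR-Trem2-Ms, against 667.8, 669.7 and 671.2 CPM in CAR-Ms. The groups were far apart, with a log2 fold change of -1.32 ± 0.032 (SE; edgeR adjusted p = 1.7e-24). Its Y-linked copy Ddx3y had 63.6, 60.7 and 60.9 CPM in CAR-Trem2-Ms and 75.6, 75.02 and 73.9 CPM in CAR-Ms. These values did not overlap either, but the difference was small, at -0.28 ± 0.058 on the log2 scale (edgeR adjusted p = 8.9e-05). That small fall was lost with upper quartile scaling and turned to 0.0076 with length and GC offsets. Dhx29, which aids scanning of the small ribosomal subunit, fell by 0.71 on the log2 scale (edgeR adjusted p = 4e-10).

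Dhx57 was the rise among them. Its place in this list is that of the grouping used here. The deposited annotation gives no pathway for Dhx57, nor for Dhx29, Dhx34 and Ddx3y. It had 40.04, 37.9 and 42.5 CPM in CAR-Trem2-Ms, against 6.34, 9.23 and 10.1 CPM in CAR-Ms. The lowest CAR-Trem2-Ms sample was several times the highest CAR-Ms sample. The fold was 4.68 (log2 2.23 ± 0.129, SE; edgeR adjusted p = 2.2e-15), and the gene lies at chr17:80238309-80290476 on the minus strand. Dhx34, a factor of nonsense-mediated decay, had a log2 fold change of 0.06 with an adjusted p of 0.45 in edgeR. Its sign turned negative with total count scaling, TPM, and length and GC offsets.

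**Figure D2:**
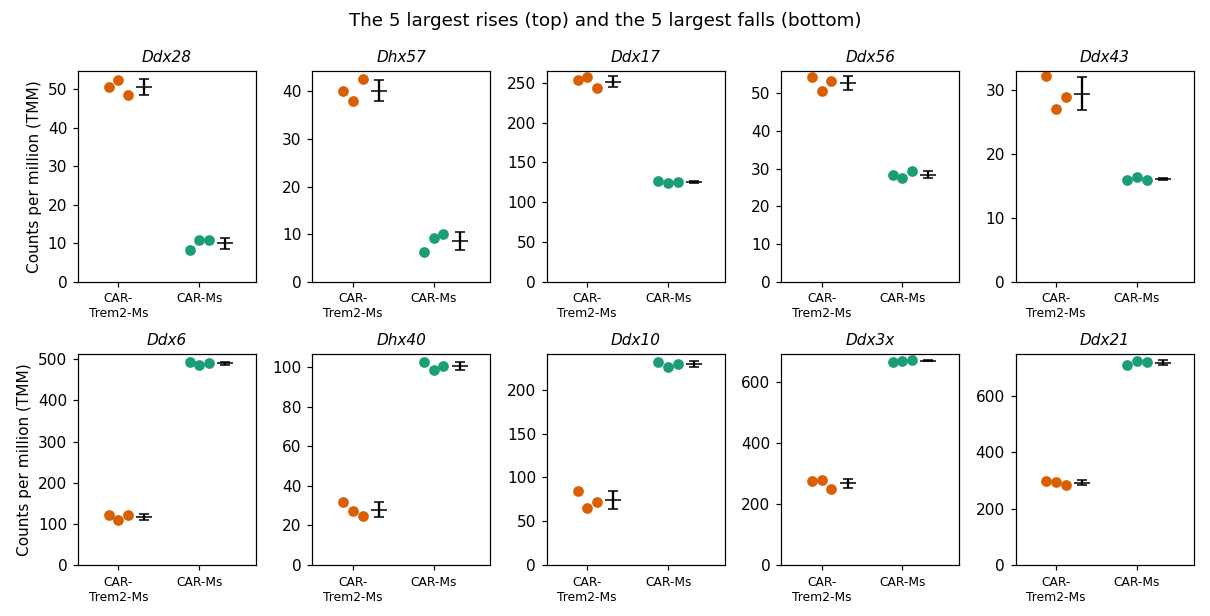
CPM on the TMM scale (axes from 0) in each sample, CAR-Trem2-Ms left of CAR-Ms, for the helicases with the 5 largest rises and 5 largest falls, with mean ± SD per group. In each of these 10 genes the 3 points of one group lie apart from the 3 of the other, from 4.17-fold lower for Ddx6 to 5.05-fold higher for Ddx28.

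Both mitochondrial helicases rose on the TMM scale. Ddx28, a factor of mitochondrial ribosome assembly, had the largest rise of the family. It had 50.7, 52.5 and 48.5 CPM in CAR-Trem2-Ms, against 8.36, 10.7 and 10.8 CPM in CAR-Ms. No sample came near the other group, and the fold was 5.05 (log2 2.34 ± 0.106, SE; edgeR adjusted p = 7.9e-18). Ddx28 lies at chr8:106009621-106011882 on the minus strand. Dhx30, which binds mitochondrial RNA and is needed for the mitochondrial ribosome, is the more abundant of the pair. It had 143.8, 141.0 and 160.6 CPM in CAR-Trem2-Ms and 111.4, 125.9 and 114.2 CPM in CAR-Ms. The groups were apart by less than for Ddx28, with a log2 fold change of 0.34 (edgeR adjusted p = 7.1e-07), and on TPM the value was -0.27. The higher mitochondrial share of the counts given above moved in the same direction as both genes, and its part was not tested. Both rises were still called with mitochondrial genome genes left out before scaling. That setting shifted the log2 fold changes of the helicases by a median of 0, so it cannot test that part.

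The nucleolar helicases of ribosome biogenesis split. Of 16 tested, 7 fell, 6 rose and 3 did not pass, around a median of 0.00 on the log2 scale, which became 0.24 with upper quartile scaling (9 rises, 6 falls) and -0.72 on TPM (1 rise, 13 falls). Ddx21, which works in ribosomal RNA transcription and processing, is the most abundant of them per length. It had 298.7, 294.8 and 283.6 CPM in CAR-Trem2-Ms, against 708.3, 723.8 and 721.8 CPM in CAR-Ms. Each CAR-Trem2-Ms sample was well below each CAR-Ms sample, with a log2 fold change of -1.30 ± 0.027 (SE; edgeR adjusted p = 6.5e-26). Ddx10, whose yeast counterpart Dbp4 acts in early pre-ribosomal RNA cleavage, had 84.8, 65.6 and 72.1 CPM in CAR-Trem2-Ms, against 232.1, 226.0 and 229.5 CPM in CAR-Ms. It was 3.07-fold lower with no overlap (log2 -1.62 ± 0.054, SE; edgeR adjusted p = 6.2e-21).

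Dhx33, linked to transcription of ribosomal DNA, fell by 0.94 on the log2 scale, Ddx52 by 0.66, Ddx31 by 0.64, Ddx18 by 0.59 and Ddx24 by 0.27. Their edgeR adjusted p-values ran from 1.7e-06 for Ddx24 to 1.4e-16 for Dhx33. Of the 50-base stretches of Ddx18, 55.9% also occur in other genes, mainly processed pseudogenes, so its reads may be split among copies. The rises were smaller. Ddx56, with the yeast counterpart Dbp9 in large subunit assembly, had 54.2, 50.6 and 53.3 CPM in CAR-Trem2-Ms and 28.2, 27.4 and 29.3 CPM in CAR-Ms. The groups were clearly apart, at a log2 fold change of 0.90 ± 0.077 (SE; edgeR adjusted p = 1.9e-11). Ddx54 rose by 0.83, Ddx51 by 0.50, Ddx50 by 0.42, Ddx55 by 0.42 and Ddx49 by 0.41. On TPM these 5 did not pass or turned lower. The values that did not pass were -0.03 for Ddx47, 0.04 for Ddx27 and 0.13 for Dhx37, with edgeR adjusted p-values of 0.54, 0.40 and 0.068. Dhx37 passed without the first CAR-Trem2-Ms sample, at 0.19 and an edgeR adjusted p of 0.012.

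Ddx21 and Ddx50 are neighbouring paralogues on chromosome 10 that moved in opposite directions on the TMM scale. Ddx50 had 79.6, 80.6 and 86.2 CPM in CAR-Trem2-Ms and 58.5, 62.2 and 63.0 CPM in CAR-Ms, with an edgeR adjusted p of 2.1e-07. Ddx21 lies at chr10:62580251-62602281 and Ddx50 at chr10:62615895-62651218, both on the minus strand. Both their promoters, the 250 bases before the start in RefSeq's GRCm38.p6 table, are printed because these neighbours differ. They span chr10:62651219-62651468 for Ddx50 and chr10:62602299-62602548 for Ddx21, on the minus strand. Those of Ddx17 at chr15:79546742-79546991 and Ddx10 at chr9:53248113-53248362, also minus, show a rise and a fall that share a motif. Capitals mark CCGGAAG, an ETS-type site, searched on both strands.
Ddx50: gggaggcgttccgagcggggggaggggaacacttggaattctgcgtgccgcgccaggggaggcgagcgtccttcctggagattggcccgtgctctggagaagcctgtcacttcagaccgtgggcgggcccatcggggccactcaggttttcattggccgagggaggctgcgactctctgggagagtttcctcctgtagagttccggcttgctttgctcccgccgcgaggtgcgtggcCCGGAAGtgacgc
Ddx21: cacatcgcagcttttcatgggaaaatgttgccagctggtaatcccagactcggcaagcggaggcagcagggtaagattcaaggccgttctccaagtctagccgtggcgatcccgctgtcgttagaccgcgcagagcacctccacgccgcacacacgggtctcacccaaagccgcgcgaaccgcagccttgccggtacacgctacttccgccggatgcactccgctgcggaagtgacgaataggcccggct
Ddx17: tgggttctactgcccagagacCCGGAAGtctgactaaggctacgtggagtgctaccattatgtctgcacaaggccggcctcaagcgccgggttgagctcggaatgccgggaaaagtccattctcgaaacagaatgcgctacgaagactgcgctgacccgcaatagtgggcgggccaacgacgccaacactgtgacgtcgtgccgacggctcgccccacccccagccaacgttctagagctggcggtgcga
Ddx10: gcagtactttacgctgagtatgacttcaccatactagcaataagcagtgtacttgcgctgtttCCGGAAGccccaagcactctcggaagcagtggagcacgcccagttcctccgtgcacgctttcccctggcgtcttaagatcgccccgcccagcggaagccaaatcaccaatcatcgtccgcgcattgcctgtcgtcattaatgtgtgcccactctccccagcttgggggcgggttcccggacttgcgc
The Ddx21 window holds the shorter CGGAAG, which lies within the longer motif, but not the 7 letters in full. The RefSeq table had a promoter for 45 helicases, some with several starts, counted as holding a motif if any start did. CCGGAAG was found for 16 of them (35.6%). On the TMM scale these included 10 of the 17 that rose (58.8%) and 4 of the 22 that fell (18.2%). The 10 were Ddx5, Ddx17, Ddx39b, Ddx49, Ddx50, Ddx54, Ddx55, Dhx16, Dhx30 and Dhx35. Of these only Ddx17 was also called higher on TPM, so this split rests on the scale. Ddx28, Ddx56 and Dhx57, whose rises held in every scaling, did not hold the motif. Counted in the same way, CCGGAAG was found for 16.9% of 9054 tested genes, for 16.4% of those that rose and 17.7% of those that fell. Of all 27025 genes with a promoter, 7.83% held it. The shorter CGGAAG was found for 10 of 17 that rose and 8 of 22 that fell, against 30.5% of tested genes and 15.3% of all genes. The E-box CACGTG was found for 6 of 45 helicases, against 10.2% of tested genes and 6.86% of all genes, and TATAAA for 3 of 45, against 7.58% and 14.3%. An NRF1-type motif was found for 6 of 45, against 9.94% and 4.23%, and an interferon-element motif for 1 of 45, against 3.2% and 3.46%. In all, 6 motifs were searched. They were chosen after the fold changes were known, and a match is a description of the letters.

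Of 9 spliceosomal helicases tested, 6 fell and 3 rose on the TMM scale, with a median log2 fold change of -0.31. With upper quartile scaling 4 fell and 3 rose at a median of -0.08, and on TPM all 9 fell at a median of -0.96. Dhx15, the counterpart of yeast Prp43 that takes spliceosomes apart, is the most abundant per length. It had 232.2, 236.3 and 225.4 CPM in CAR-Trem2-Ms, against 534.4, 553.5 and 541.3 CPM in CAR-Ms. The groups lay far apart, at 2.35-fold lower (log2 -1.23 ± 0.029, SE; edgeR adjusted p = 1.4e-24). Dhx38, the counterpart of yeast Prp16 of the second splicing step, fell by 0.88. Ddx46, the counterpart of yeast Prp5 at branch point recognition, fell by 0.80. Ddx23, the counterpart of yeast Prp28 that exchanges small nuclear RNAs at the splice site, fell by 0.62. Their edgeR adjusted p-values were at most 1.7e-13.

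Smaller differences made up the rest of the splicing group. Dhx8, the counterpart of yeast Prp22 that releases spliced message, fell by 0.32 and Ddx42, a partner of the U2 particle, by 0.17. Dhx16, the counterpart of yeast Prp2, rose by 0.22 and Ddx41, known for mutations in myeloid leukaemia, by 0.18. Dhx35 was higher by 0.20 at an edgeR adjusted p of 0.049, and this call was lost without CAR-Ms sample 1 or 2 or CAR-Trem2-Ms sample 2 or 3. It was also lost with RLE scaling, DESeq2, no filter on low counts, a replicate block and without mitochondrial genome genes. With total count scaling none of the 3 rises was called, beside 6 falls. With length and GC offsets the signs of Ddx42, Dhx16 and Ddx41 turned round, to 0.06, -0.21 and -0.39. On TPM the 3 rises were called lower.

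The helicases of message export fell except for Ddx39b. Ddx39b, also called UAP56, loads export factors on messages as part of the TREX complex. It had 359.8, 362.6 and 363.3 CPM in CAR-Trem2-Ms and 221.2, 232.7 and 239.8 CPM in CAR-Ms. The groups did not overlap, at a log2 fold change of 0.65 ± 0.032 (SE; edgeR adjusted p = 7.4e-17), but the value on TPM was -0.06 and did not pass. Its paralogue Ddx39a had 140.9, 132.9 and 132.9 CPM in CAR-Trem2-Ms and 164.7, 164.7 and 163.6 CPM in CAR-Ms. That was a small fall without overlap (log2 -0.28 ± 0.040, SE; edgeR adjusted p = 4.2e-07), which upper quartile scaling reduced to -0.04 and did not call. Of the exon bases of Ddx39a, 17.4% overlap Adgre5 on the other strand, which was itself at 5.54 ± 0.57 CPM in CAR-Trem2-Ms and 9.57 ± 2.58 CPM in CAR-Ms.

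Ddx19a and Ddx19b, which release export factors on the cytoplasmic side of the nuclear pore, are neighbours on chromosome 8 and both fell. Ddx19b had 28.0, 28.9 and 24.8 CPM in CAR-Trem2-Ms, against 59.9, 63.7 and 62.5 CPM in CAR-Ms. Ddx19a had 56.5, 61.0 and 58.4 CPM in CAR-Trem2-Ms, against 106.5, 101.7 and 104.2 CPM in CAR-Ms. For both genes the groups were well apart. The log2 fold changes were -1.19 ± 0.078 for Ddx19b and -0.83 ± 0.055 for Ddx19a (SE; edgeR adjusted p = 3.6e-14 and 4.8e-14). They share sequence: 28.1% of the 50-base stretches of Ddx19a occur in Ddx19b, so the split of reads between them is uncertain.

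Among nuclear regulators, the paralogues Ddx5 and Ddx17 rose and the other 4 fell. The median log2 fold change of the 6 was -0.32. With length and GC offsets it was 0.17 (4 rises, 2 falls), and with upper quartile scaling -0.08 (2 rises, 2 falls). Ddx5 (p68) and Ddx17 (p72) are coregulators of transcription and partners of microRNA processing. Ddx17, at chr15:79527736-79546741, had 254.0, 256.7 and 243.2 CPM in CAR-Trem2-Ms, against 126.6, 124.5 and 125.9 CPM in CAR-Ms. CAR-Trem2-Ms thus stood 1.999-fold higher with no overlap (log2 1.00 ± 0.037, SE; edgeR adjusted p = 5.8e-20). Ddx5 had 1353, 1345 and 1344 CPM in CAR-Trem2-Ms, against 873.8, 850.8 and 866.5 CPM in CAR-Ms. Its groups were as clearly apart (log2 0.64 ± 0.020, SE; edgeR adjusted p = 1.2e-21). On TPM, however, the value of Ddx5 was -0.17 and was called lower, so the direction of Ddx5 rests on the scale. Of the 50-base stretches of Ddx5, 13.3% occur in the pseudogene Gm12183.

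Dhx9, or RNA helicase A, unwinds nuclear RNA structures and fell to 296.6, 272.8 and 276.0 CPM in CAR-Trem2-Ms, against 429.3, 434.3 and 428.4 CPM in CAR-Ms. That is a log2 fold change of -0.61 ± 0.031 (SE; edgeR adjusted p = 1.2e-16). Ddx20 (Gemin3), which belongs to the SMN complex that builds small nuclear ribonucleoproteins, fell by 0.74. Dhx36, which resolves G-quadruplexes, fell by 0.33 and Ddx1, of the transfer RNA ligase complex, by 0.30. With length and GC offsets Dhx36 and Ddx1 turned to 0.21 and 0.12.

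The remaining tested helicases have less settled or tissue-restricted roles. Dhx40 had 31.9, 27.5 and 24.6 CPM in CAR-Trem2-Ms, against 102.6, 98.2 and 100.5 CPM in CAR-Ms. This was the second largest fall of the family, 3.58-fold (log2 -1.84 ± 0.073, SE; edgeR adjusted p = 3.6e-19). Dhx32 had 31.0, 29.4 and 31.7 CPM in CAR-Trem2-Ms and 62.1, 62.7 and 65.0 CPM in CAR-Ms, a fall of 2.06-fold with no overlap (edgeR adjusted p = 1.5e-13). Ddx59, linked to cilia, had 7.19, 10.3 and 5.46 CPM in CAR-Trem2-Ms and 3.98, 5.07 and 3.89 CPM in CAR-Ms. The groups barely separated, and the rise of 0.81 ± 0.235 on the log2 scale had the widest error of the family (edgeR adjusted p = 0.0027). Ddx11, a DNA helicase of sister chromatid cohesion, differed by 0.14 and did not pass (edgeR adjusted p = 0.13).

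Of the germ cell helicases, Ddx43 had 32.2, 27.1 and 28.9 CPM in CAR-Trem2-Ms, against 15.98, 16.3 and 15.9 CPM in CAR-Ms. It rose without overlap (log2 0.87 ± 0.107, SE; edgeR adjusted p = 2.3e-08), a call that TPM did not give. Ddx4, the germ line marker also called Vasa, had 6, 1 and 2 reads in CAR-Trem2-Ms and 3, 1 and 4 reads in CAR-Ms. Ddx25, a testis helicase, had 5, 4 and 0 reads in CAR-Trem2-Ms and 8, 9 and 5 reads in CAR-Ms. A difference in either was not detectable at this depth, where 3 counts are the limit that a count of 0 allows.

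Ratios of reads within a library do not depend on the scaling of the library, and they differed between the groups in all 5 paralogue pairs. Ddx21 had 3.75, 3.66 and 3.29 reads per Ddx50 read in CAR-Trem2-Ms, against 12.12, 11.64 and 11.45 in CAR-Ms. Ddx3x had 4.34, 4.57 and 4.10 reads per Ddx3y read in CAR-Trem2-Ms, against 8.84, 8.93 and 9.08 in CAR-Ms. Both ratios were far lower in CAR-Trem2-Ms. Ddx39a had 0.375 ± 0.015 reads per Ddx39b read in CAR-Trem2-Ms and 0.712 ± 0.031 in CAR-Ms, and Ddx5 had 5.36 ± 0.15 per Ddx17 read in CAR-Trem2-Ms and 6.87 ± 0.03 in CAR-Ms (SD, n = 3 each). Ddx19a went the other way, with 2.16 ± 0.18 per Ddx19b read in CAR-Trem2-Ms and 1.68 ± 0.09 in CAR-Ms. Its direction did not hold with length and GC offsets, where the log2 fold changes were -0.98 for Ddx19a and -0.57 for Ddx19b. On the TMM scale they were -0.83 and -1.19. Their shared sequence also leaves the split of reads uncertain. In the other pairs the order of the fold changes was the same with these offsets. No ratio overlapped between the groups. Of all genes tested, 81.8% also separated the groups in CPM, and ratios of other gene pairs were not computed. The lack of overlap therefore does not set these pairs apart. The exact two-sided permutation p was 0.1 for each ratio, before and after adjustment over the 5 pairs. That is the smallest that 3 against 3 samples allow.

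**Figure D3:**
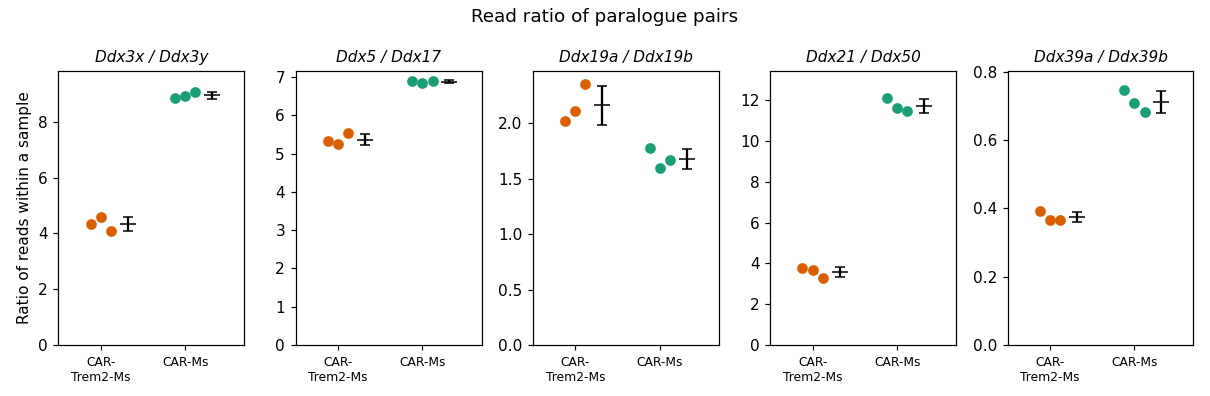
Reads of the first gene per read of the second in each sample, CAR-Trem2-Ms left of CAR-Ms, for the 5 pairs of paralogues, on axes from 0, with mean ± SD per group. CAR-Trem2-Ms lie below CAR-Ms in 4 pairs and above them for Ddx19a over Ddx19b, with no overlap in any pair.

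Per length, the family was ordered differently in CAR-Trem2-Ms below its first 2 members. Ddx5 came first at 466.5 ± 8.53 TPM in CAR-Trem2-Ms and 524.2 ± 12.1 TPM in CAR-Ms. Ddx39b followed at 299.0 ± 7.25 TPM in CAR-Trem2-Ms and 310.9 ± 14.4 TPM in CAR-Ms. In CAR-Trem2-Ms the next were Ddx39a at 83.4 ± 1.92 and Dhx15 at 82.3 ± 2.26 TPM, which differed by less than their spread, then Dhx9 at 70.1 ± 3.26 TPM. After them came Ddx17 at 62.0 ± 2.10, Ddx21 at 61.8 ± 1.43 and Ddx3x at 57.0 ± 3.27 TPM, of which the first pair differed by less than their spread. In CAR-Ms Dhx15 at 307.8 ± 6.395 TPM was level with Ddx39b within their spread, followed by Ddx21 at 244.0 ± 3.56 and Ddx3x at 229.1 ± 1.44 TPM. Ddx17 was thus 6th in CAR-Trem2-Ms and 22nd in CAR-Ms. Ddx6 was 29th in CAR-Trem2-Ms, at 19.1 ± 1.04 TPM, and 9th in CAR-Ms, at 128.2 ± 0.99 TPM. Dhx40 was 46th of 48 in CAR-Trem2-Ms and 26th in CAR-Ms, while Ddx28 was 26th in CAR-Trem2-Ms and 46th in CAR-Ms.

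**Figure D4:**
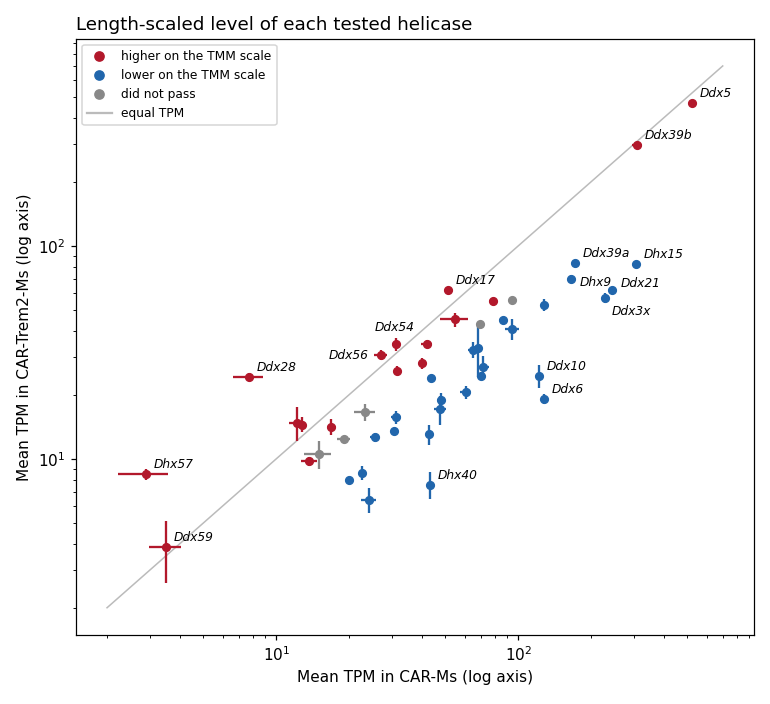
Mean TPM of each tested helicase in CAR-Trem2-Ms (vertical, log axis) against CAR-Ms (horizontal, log axis), with SD over 3 samples each, coloured by the call on the TMM scale, and a line of equal TPM. Ddx5 and Ddx39b, called higher on the TMM scale, lie just under the line, while Ddx17, Ddx28 and Dhx57 lie above it.

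Over the 48 tested helicases, Spearman's rho of the log2 fold change was 0.43 with GC content and -0.25 with the length of the longest transcript. These are descriptions across genes of the same libraries, and over 11382 genes they were 0.28 and -0.31. With all genes cut into 4 equal bins of GC content, the median in the lowest bin was -0.61 for 13 helicases and -0.31 for all genes. In the highest bin, the median was 0.28 for 12 helicases and 0.50 for all genes. By length, the 4 bins from short to long transcripts had medians of 0.81, -0.64, -0.22 and -0.56 for the helicases and of 0.44, 0.15, -0.08 and -0.43 for all genes, so the helicases showed no steady run with length. Of the 5 largest falls, Ddx3x, Ddx6, Ddx10 and Dhx40 have a GC content between 41.0 and 43.4% and Ddx21 one of 46.3%. Ddx5 and Ddx50, which rose on the TMM scale, have 43.3% and 37.4%. With offsets for length and GC, the median of the helicases was -0.23 and that of all genes -0.02, with 18 helicases higher and 26 lower.

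**Figure D5:**
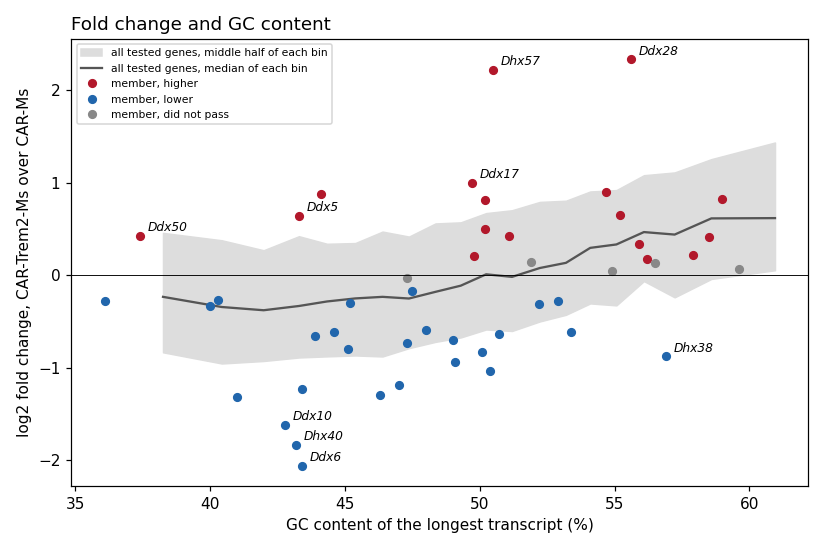
Log2 fold change (CAR-Trem2-Ms over CAR-Ms, TMM scale) of the tested helicases against the GC content of their longest transcript in percent, over the median and quartiles of all genes in 20 bins. The helicases follow the upward run of all genes with wide scatter, with Spearman's rho of 0.43 for 48 helicases.

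The proteins that work with these helicases were described from lists. Of 11 Ddx6 partners in repression and decay, 9 fell and 1 rose, with a median log2 fold change of -0.33, where 40.1% of all genes fell and 40.9% rose. With upper quartile scaling 5 fell and 2 rose at a median of -0.10, with length and GC offsets 6 fell and 2 rose at -0.18, and on TPM the median was -1.01. Cnot1, the scaffold of the CCR4-NOT deadenylase that binds Ddx6, averaged 164.2 ± 4.96 CPM in CAR-Trem2-Ms and 556.5 ± 3.81 CPM in CAR-Ms, a fall of 1.76 on the log2 scale. The exonuclease Xrn1 fell by 0.97 and the decapping factor Dcp1b rose by 1.82. Of 14 TREX and export factors 8 fell and 5 rose, with Alyref, which Ddx39b loads on messages, lower by 1.20, Thoc3 lower by 1.09 and Alyref2 higher by 2.79. Of 8 proteins of the SMN complex, where Ddx20 sits, 4 fell and 3 rose, with Strap lower by 1.28, Gemin4 higher by 0.98 and Gemin7 higher by 0.93.

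G-patch proteins, of which several activate DEAH box helicases, showed 8 rises and 8 falls among 22 on the TMM scale, 13 rises and 6 falls with upper quartile scaling, and 3 rises and 16 falls on TPM. The named ones of largest fold change were Sugp1 at 1.51, Sugp2 at 1.01 and Zgpat at 1.00. Helicases of related families showed 7 rises and 9 falls among 18 tested. Helz2 was higher by 2.09 and Znfx1 higher by 1.58. The edgeR adjusted p-values of the partners named here were at most 1.3e-09. The medians of the TREX, SMN and related lists were -0.17, -0.22 and -0.10, and turned positive with upper quartile scaling. Of the interferon-induced helicases that were set aside, Dhx58 stood at 42.6 ± 3.08 CPM in CAR-Trem2-Ms and 2.58 ± 0.49 CPM in CAR-Ms, a rise larger than that of any helicase counted in the family. Ddx60 had few reads, with 40, 10 and 20 in CAR-Trem2-Ms and 2, 0 and 3 in CAR-Ms. Its log2 fold change was 4.15 ± 0.692 (SE; edgeR adjusted p = 4e-06).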

How the data were processed

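RNA sequencing of 3 CAR-Trem2-Ms and 3 CAR-Ms samples was used as processed by the authors. Per the file headers, the deposited table holds, per gene and sample, whole read counts and also TPM, which the authors scaled for gene length. It also holds the authors' mean signal per group, a deposited log2 ratio of the TPM means, and the authors' own p-value and FDR. Per the submitters' processing notes, the tools were HISAT2, StringTie 1.3.1, Bowtie2 2.2.8 and fastp 0.18.0, on the build mm10. Not given in the sources used here are the counting tool, its use of strand and its annotation, so reads of overlapping genes on opposite strands cannot be told apart, which touches Ddx49 (29.8% of exon bases with Homer3), Ddx39a, Ddx41, Ddx43, Ddx54 and Ddx59.

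The main test was that of edgeR 4.0.16 under R 4.3.3 on counts (quasi-likelihood, TMM, filterByExpr, Benjamini-Hochberg over 11402 genes). Standard errors were derived from the F statistic. The test was tried on simulated data in which a small share of genes changed, evenly up and down. In the real data 81.1% of genes were called, so that trial cannot judge the scaling used here. Total counts ran from 9.8 to 15.91 (in 1e6), and replicate pairs differed by more than sampling noise (chi-square per degree of freedom 2.19 to 3.34), so each sample counted once. Alternatives were RLE, upper quartile and total count scaling, leaving out mitochondrial genome genes, no filter, a minimum of 10 reads throughout at least one group, DESeq2 1.42.0, limma-voom (limma 3.58.1), limma-trend on log2(TPM + 1) and log2(TPM + 0.1) where 3 samples reached a TPM of 1, a replicate block, leaving out each sample, an adjusted p under 0.01 and an absolute log2 fold change of at least 1. Offsets for transcript length and GC content were added after seeing the data. Coordinates, lengths, GC and shared 50-base stretches came from GENCODE M21 (GRCm38), and promoters from RefSeq.

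The helicases, roles, pairs and partner lists were chosen with earlier results of these data known. Values in every sample are given for the 5 largest rises and falls, the most abundant member per length of each of 8 roles, and each paralogue pair, and also for Dhx9 and Ddx59, added after their values were seen, and as reads for Ddx4 and Ddx25; values alone for members that did not pass; fold changes for the others. From each partner list the named genes are up to 3 called ones of largest fold change, given 50 reads on average in the higher group; a gene so chosen is not reported here. Counting intervals and floors cover counting error only, since PCR copies are not independent molecules.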

Additional observations from a re-analysis of the deposited data

How the results depend on the processing

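The directions of the helicases moved with the scale more than with the test. The median log2 fold change of the helicases was -0.04 with upper quartile scaling, -0.40 with total counts, -0.95 on log2(TPM + 1) and -0.98 on log2(TPM + 0.1), beside medians of all genes of 0.26, -0.10, -0.63 and -0.69. There were 22 rises and 19 falls with upper quartile scaling and 14 rises and 27 falls with total counts. The count of rises was 4, beside 39 falls, under both TPM settings, and with an absolute log2 fold change of at least 1 it was 2, beside 8 falls. Signs turned with upper quartile scaling for Ddx42 (0.06) and Ddx47 (0.20), and with total counts for Dhx34 (-0.06) and Ddx27 (-0.08). On log2(TPM + 1) they turned for Ddx5 (-0.17), Ddx39b (-0.06), Ddx50 (-0.26), Dhx30 (-0.27), Ddx49 (-0.27), Ddx55 (-0.25), Dhx16 (-0.50), Ddx41 (-0.50), Dhx35 (-0.45), Dhx37 (-0.47), Ddx11 (-0.47), Dhx34 (-0.58) and Ddx27 (-0.68). On log2(TPM + 0.1) the same 13 were Ddx5 (-0.17), Ddx39b (-0.06), Ddx50 (-0.27), Dhx30 (-0.27), Ddx49 (-0.28), Ddx55 (-0.26), Dhx16 (-0.51), Ddx41 (-0.51), Dhx35 (-0.49), Dhx37 (-0.49), Ddx11 (-0.50), Dhx34 (-0.62) and Ddx27 (-0.69). With length and GC offsets they turned for Ddx1 (0.12), Ddx24 (0.03), Dhx36 (0.21), Ddx3y (0.0076), Ddx49 (-0.30), Ddx42 (0.06), Dhx16 (-0.21), Ddx41 (-0.39), Dhx37 (-0.00056), Ddx47 (0.20), Dhx34 (-0.31) and Ddx27 (-0.34). The cause of these changes was not tested. Leaving out 1 sample gave 16 to 18 rises, 26 falls and medians from -0.29 to -0.26, and 46 helicases kept their sign and call in each such fit, the exceptions being Dhx35 and Dhx37. With the replicate number as a block there were 16 rises and 26 falls at a median of -0.28, and Dhx35 alone lost its call. Samples with the same number did not deviate together (correlations of 0.01, -0.03 and 0.03), and 2 of 6 samples were closest to their own number, so the numbers do not pair samples. Depth limits Ddx59, Ddx4 and Ddx25 most.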

Other observations

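The authors' deposited table calls 42 of the 50 helicases at an FDR under 0.05, of which 34 are lower and 8 higher in CAR-Trem2-Ms, where 28.6% of all rows of the authors' deposited table are lower and 13.8% higher by the same rule. That split joins the FDR of the authors' deposited table, whose tool is not given, to the sign of its ratio of TPM means. For 8 of the 42 (Ddx5, Ddx39b, Ddx50, Dhx30, Ddx49, Ddx55, Dhx16 and Ddx41) that sign is negative where edgeR on the counts called the gene higher. Its log2 ratios put Ddx28 at 1.65, Dhx57 at 1.54 and Ddx17 at 0.28 on the log2 scale in the authors' deposited table.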
